A study of Drosophila melanogaster with 6 samples.

Results

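The muscle isoform genes followed here are the Drosophila actins Act57B, Act79B, Act87E and Act88F, the troponin C genes TpnC4, TpnC41C, TpnC47D and TpnC73F, the thick filament gene fln (flightin), and Mhc, the muscle myosin heavy chain. They were looked up by symbol in the annotation of the array's probe sets, and each was read by the brightest of its 1-gene probe sets, taken by the mean of the 6 arrays. Of the 10 genes, 7 had such a probe set, out of 11982 genes named on the array. Act57B, TpnC47D and Mhc had none and were not analysed here. Total RNA came from dissected proboscises, with which flies feed and taste, and the flies were male Drosophila melanogaster carrying the poxn70 allele of Pox neuro. There were 3 arrays of homozygous flies and 3 of heterozygous flies, so the control group also carries 1 copy of poxn70. The labels give the same sex, an age of 8 to 18 days past eclosion and room temperature for both groups, and 164 to 280 proboscises for each array. Each replicate was a pool dissected in several batches, per the labels, and the other chromosome of the heterozygotes is not described further.

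Muscle contracts when calcium binds troponin C on the actin filament and frees the sites at which myosin pulls. Flies build different muscles from different members of these gene families. The indirect flight muscles of the thorax are fibrillar, are activated by stretch, and use the actin Act88F, the troponin C isoform TpnC4 and flightin. Tubular muscles, which move the legs and the proboscis, contract in step with nerve impulses and are known for Act79B and TpnC41C. Act87E and TpnC73F are known from the larval body wall and are used in other adult muscles as well. Whether any of these isoforms is limited to the muscle type named for it was not tested here. The comparison asks which of these isoforms are read in the proboscis and whether they differ between the genotypes. Pox neuro itself encodes a transcription factor of taste bristle development. No sequences are shown, because sequences of these genes or probe sets were not used here.

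All values are log2 GCRMA values, where 1 unit is a doubling of the probe set's signal, and a value under 3 was treated as background. Values of different probe sets are not on a shared scale, so no gene is called more or less expressed than another. Marker levels given below as sums add several probe sets all the same, and their brightest genes weigh most in them. Differences are homozygous minus heterozygous and were tested with limma over 18769 probe sets, with Benjamini-Hochberg adjusted p values and a threshold of 0.05. The 6 arrays limit the precision, and in a whole organ fewer muscle cells and less RNA per cell cannot be told apart.

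Probe sets of isoforms known from both kinds of muscle gave signal in the dissected proboscis samples. None of the 7 differed between the genotypes by the test. Whether their RNA came from muscle of the proboscis or from other tissue in the samples was not tested. All 7 probe sets were above the background limit on all 6 arrays. By limma 0 of 7 were lower and 0 of 7 higher in homozygotes, against 0.314% of all probe sets lower and 0.0586% higher (0.373% in either direction). At an unadjusted p under 0.05 the counts were also 0 and 0, against 2.9% and 4.33%. The genotypes overlapped in each of the 7. Of all probe sets, 4.48% were lower in homozygotes without overlap and 18.5% higher without overlap (22.9% together). These shares include the 48.2% of probe sets with all 6 values under the limit, unlike the 7. The median difference of the 7 was -0.41, and that of all genes was 0.00. With the replicate number as a block, limma called 0 of the 7 and 0% of all probe sets.

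Act88F, the flight muscle actin, varied more between arrays of the same genotype than between genotypes. It read 9.01, 5.67 and 5.71 in homozygous replicates 1, 2 and 3, and 10.70, 4.82 and 9.19 in heterozygous replicates 1, 2 and 3. The genotypes overlap: homozygous replicate 1 is nearly as high as heterozygous replicate 3, and the lowest array of all is heterozygous replicate 2. Among heterozygotes alone the highest array was 58.9 times the lowest, and among homozygotes 10.2 times. The means were 6.80 ± 1.92 (SD, n = 3) and 8.23 ± 3.05 (SD, n = 3), a difference of -1.44 with a 95% confidence interval from -6.05 to 3.18 (limma adjusted p = 0.666).

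TpnC4, the troponin C of stretch-activated flight muscle, followed the same arrays. Its values were 8.68, 6.39 and 6.66 in homozygous replicates 1, 2 and 3, and 12.00, 7.34 and 10.66 in heterozygous replicates 1, 2 and 3. Heterozygous replicates 1 and 3 are above every homozygous array, while heterozygous replicate 2 lies within the homozygous range. Homozygotes averaged 7.24 ± 1.25 (SD, n = 3) and heterozygotes 10.002 ± 2.40 (SD, n = 3). Of the 7 genes it had the largest difference, -2.76 (95% confidence interval -6.22 to 0.71, limma adjusted p = 0.611, unadjusted p = 0.0971). Homozygotes were lower in all 3 same-numbered pairs, with differences from -4.0 to -0.95. With the replicate block the unadjusted p was 0.0360 and the adjusted p 0.334 (limma), so the gene passed neither fit. In that block fit 14% of all probe sets had an unadjusted p under 0.05 (limma). The labels do not define pairs by replicate number. Without heterozygous replicate 2 the difference was -4.09 (adjusted p = 0.627), and without heterozygous replicate 1 it was -1.76 (adjusted p = 0.852).

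fln encodes flightin, a myosin-binding protein of flight muscle thick filaments. It read 8.71, 5.13 and 6.20 in homozygous replicates 1, 2 and 3, and 7.94, 6.17 and 8.37 in heterozygous replicates 1, 2 and 3. The highest array was a homozygous one, replicate 1, and the groups overlap over most of their range. The difference was -0.81 (95% confidence interval -3.61 to 1.98, limma adjusted p = 0.684). It moved to -1.83 without homozygous replicate 1 and to -0.04 without homozygous replicate 2.

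**Figure D1:**
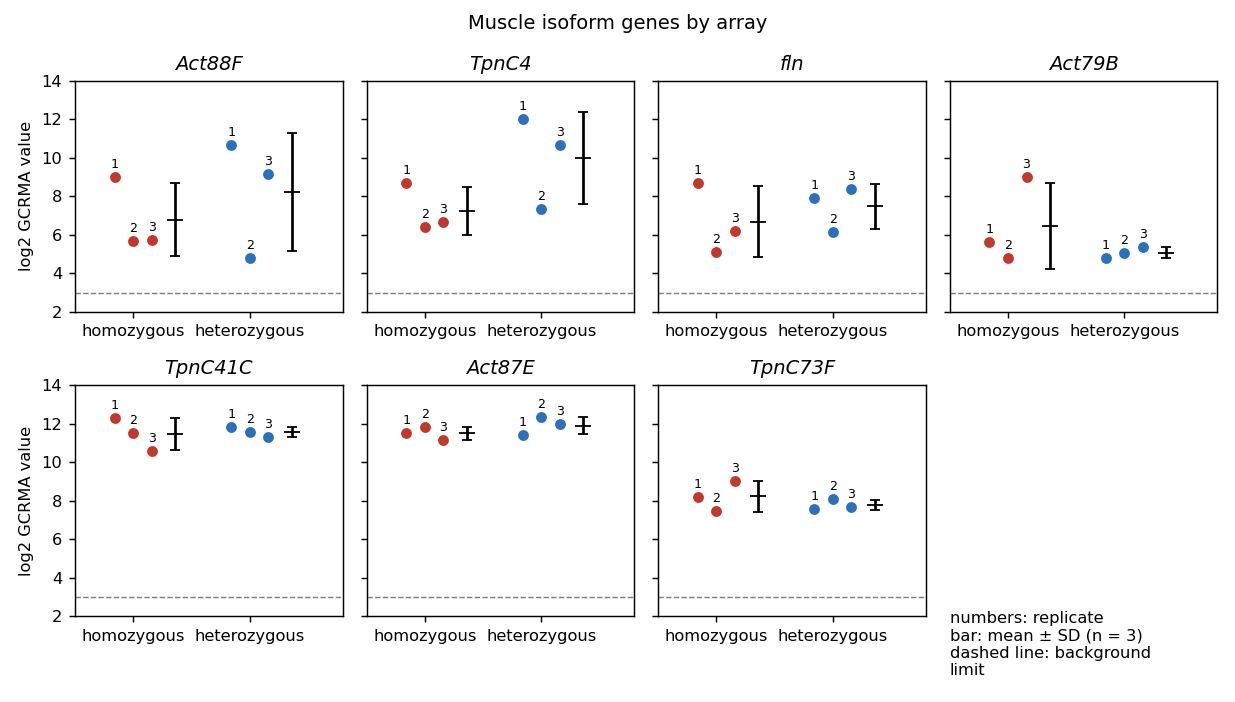
Log2 GCRMA values (vertical axis) of the 7 muscle isoform genes on each array, with homozygous arrays in red, heterozygous arrays in blue, replicate numbers above the points, and the mean ± SD of 3 arrays in black. Act88F, TpnC4 and fln are high in homozygous replicate 1 and heterozygous replicates 1 and 3, Act79B is high in homozygous replicate 3 only, and all points lie above the dashed background limit of 3.

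Act79B, the actin of tubular muscle, was raised on 1 array. It read 5.62, 4.80 and 8.99 in homozygous replicates 1, 2 and 3, and 4.82, 5.08 and 5.35 in heterozygous replicates 1, 2 and 3. Homozygous replicate 3 stands apart, and the 5 others lie within 1 unit of each other. The difference of 1.39 (95% confidence interval -1.51 to 4.28, limma adjusted p = 0.611) rests on that array: without it the difference was 0.13 (adjusted p = 0.883).

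TpnC41C, a troponin C of adult tubular muscle, was steadier. Its values were 12.29, 11.52 and 10.59 in homozygous replicates 1, 2 and 3, and 11.83, 11.59 and 11.32 in heterozygous replicates 1, 2 and 3. The heterozygous arrays all lie inside the homozygous range. The difference was -0.11 (95% confidence interval -1.26 to 1.04, limma adjusted p = 0.892), and its direction turned to 0.33 without homozygous replicate 3 and to 0.02 without heterozygous replicate 1.

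Act87E was the steadiest of the 7. It read 11.52, 11.82 and 11.16 in homozygous replicates 1, 2 and 3, and 11.41, 12.33 and 11.99 in heterozygous replicates 1, 2 and 3. The groups overlap, with the 2 highest arrays heterozygous. The difference was -0.41 (95% confidence interval -1.16 to 0.35, limma adjusted p = 0.611), and it was -0.20 without heterozygous replicate 2. Actin genes have closely similar coding sequences, and the probe set of Act87E carries the suffix that the array's maker gives to sets matching several transcripts, so its signal may hold RNA of other actins.

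TpnC73F read 8.20, 7.44 and 9.03 in homozygous replicates 1, 2 and 3, and 7.59, 8.06 and 7.65 in heterozygous replicates 1, 2 and 3. Homozygous replicate 3 is its highest array, as for Act79B, and homozygous replicate 2 its lowest. The difference was 0.46 (95% confidence interval -0.64 to 1.56, limma adjusted p = 0.611), and 0.06 without homozygous replicate 3. Its second probe set lay under the background limit on all 6 arrays (2.33 to 2.34), so the 2 probe sets of this gene disagree on whether it was detected.

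**Figure D2:**
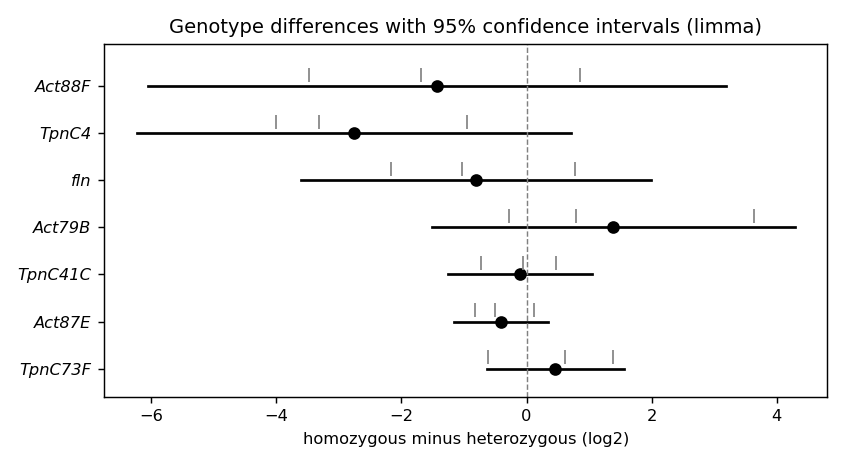
Difference between genotypes (horizontal axis, homozygous minus heterozygous, log2) for each muscle isoform gene, with the mean difference as a point, its 95% confidence interval from limma as a line, and the 3 same-numbered pairs as grey ticks. Every interval includes 0, the widest is that of Act88F (-6.05 to 3.18) and the narrowest that of Act87E (-1.16 to 0.35).

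The 7 genes divided by how much they varied between arrays. Act88F, TpnC4, Act79B and fln spanned 5.88, 5.61, 4.19 and 3.57 log2 units over the 6 arrays, whereas TpnC41C, TpnC73F and Act87E spanned 1.70, 1.59 and 1.17. Of the 9236 probe sets with a mean above the limit, 6.32% spanned more than 3 units, and the median span was 0.99. The SD left within genotypes was 2.55 for Act88F, and 0.401% of those probe sets had a larger one. For TpnC4 this share was 1.30%, for Act79B 2.39% and for fln 2.66%, whereas it was 18.4% for TpnC41C, 20.8% for TpnC73F and 39.2% for Act87E.

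**Figure D3:**
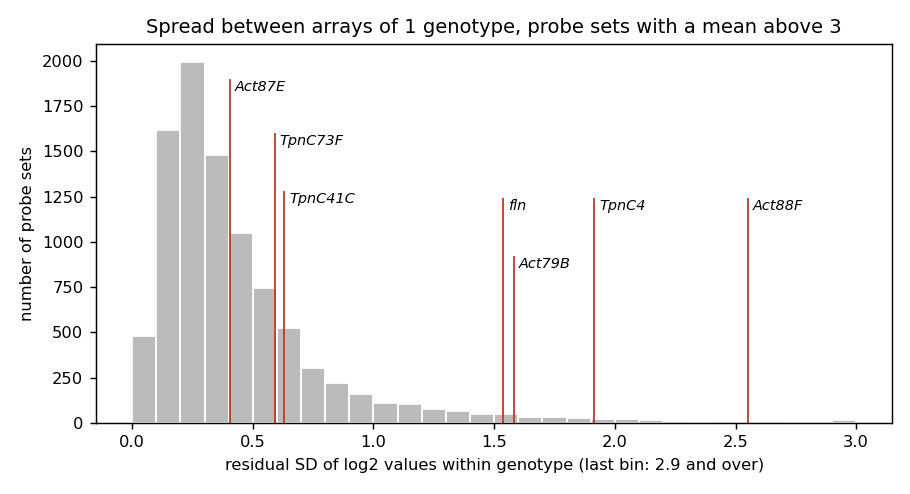
Number of probe sets (vertical axis, those with a mean above 3) by their residual SD within genotype (horizontal axis, log2 units), with red lines at the muscle isoform genes. Act88F (2.55), TpnC4 (1.91), Act79B (1.58) and fln (1.54) lie in the right tail, and TpnC41C (0.63), TpnC73F (0.59) and Act87E (0.40) in the body of the distribution.

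Act88F and TpnC4 had the most similar profiles among the isoforms that varied most. Likeness was measured as the root mean square difference between the profiles of 2 genes over the 6 arrays, after each profile was centred on its own mean. It was 0.86 log2 units between Act88F and TpnC4, 1.27 between Act88F and fln, and 1.34 between TpnC4 and fln. The profile of fln was nearest to that of TpnC41C (1.16), and it stood 1.43 from Act87E and 1.47 from TpnC73F. Act79B stood 3.01 from Act88F and 2.99 from TpnC4, and its closest gene among the 7 was TpnC73F, at 0.99. TpnC41C and Act87E were 0.57 apart. These distances describe 6 arrays and carry no test, and steadier genes are closer by this measure because they vary less.

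Among genes outside the 7, each read by its brightest probe set, the 4 closest to Act88F, the gene with the largest SD over the arrays, were epsilonTry (1.03), a trypsin gene, CG4734 (1.09), Jhedup (1.15), a relative of the juvenile hormone esterase gene, and CG11878 (1.19). epsilonTry read 8.43, 6.35 and 4.15 in homozygous replicates 1, 2 and 3, and 8.51, 5.32 and 8.53 in heterozygous replicates 1, 2 and 3. These are the same 3 high arrays as for Act88F. Both measured genes of the salivary gland and gut marker list, LManII and Jon65Aiii, were above the limit. Their summed level ran from 11.71 to 13.86 in homozygotes and from 12.55 to 13.49 in heterozygotes. That level was highest in homozygous replicate 1, but in heterozygous replicate 1, where Act88F peaked, it was the lowest of the heterozygotes. The markers went different ways: Jon65Aiii was highest in homozygous replicate 1 (13.69), where LManII was lowest (10.66). Their part in the flight muscle readings was not tested.

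Further muscle genes that, like Act88F, were highest in heterozygous replicate 1 were picked after their values were seen. The dimmer of the 2 detected probe sets of Strn-Mlck, which encodes a large myosin light chain kinase-like muscle protein, was the closest of 8120 probe sets to Act88F (0.68) and to TpnC4 (0.75). It read 6.37, 3.26 and 4.23 in homozygous replicates 1, 2 and 3, and 8.02, 3.77 and 6.32 in heterozygous replicates 1, 2 and 3. The brighter probe set of the same gene read 10.23 to 10.96 on all arrays, so the 2 sets of Strn-Mlck differ in pattern. Scp1, a sarcoplasmic calcium-binding protein gene, ranked 6 for Act88F, at 9.11, 6.76 and 8.70 in homozygotes and 10.29, 7.23 and 9.24 in heterozygotes. salm (spalt major), the selector gene of fibrillar flight muscle, was at 6.48 in heterozygous replicate 1, where Act88F and TpnC4 also peaked, and between 2.70 and 3.38 on the other 5 arrays. vg (vestigial), which acts in wing and flight muscle development, was above the limit on that array alone (4.24, and at most 2.92 elsewhere).

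**Figure D4:**
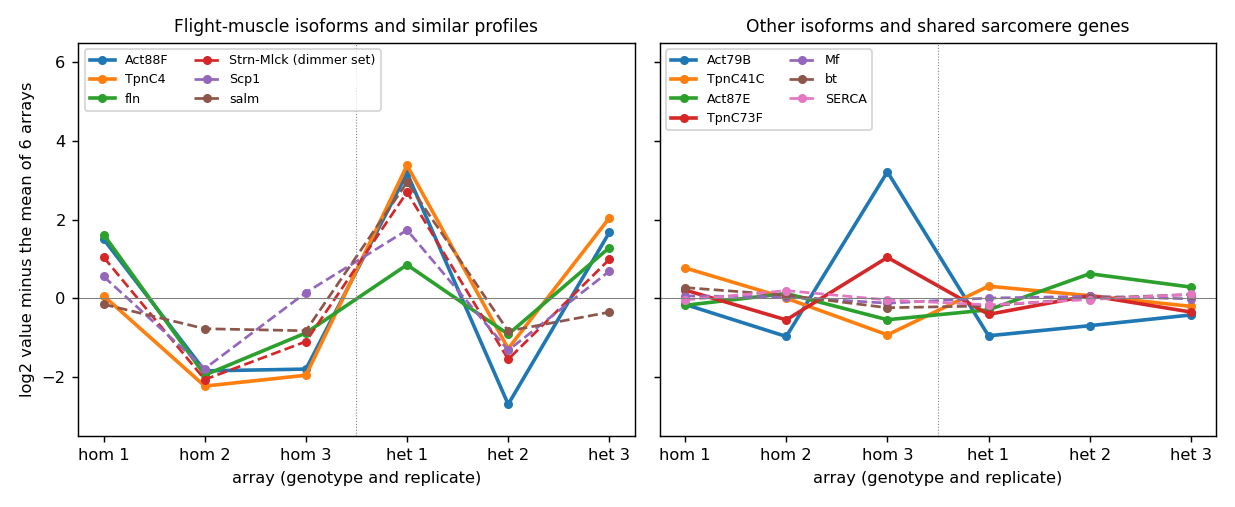
Log2 value minus the gene's mean over 6 arrays (vertical axis) by array (horizontal axis, hom for homozygous, het for heterozygous, with the replicate number), where lines only join the points of 1 gene. Left, Act88F, TpnC4, fln, the dimmer Strn-Mlck probe set, Scp1 and salm all peak in heterozygous replicate 1 except fln, which peaks in homozygous replicate 1. Right, Act79B and TpnC73F peak in homozygous replicate 3, and Mf, bt and SERCA stay within 0.51 log2 units over all arrays.

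The profile of Act79B pointed to another set of genes, also looked up after its values were seen. Closest were CG13947 (0.42), CG14075 (0.67), cutlet (0.72) and e (ebony, 0.84), an enzyme gene of cuticle pigmentation. CG13947 read 6.45, 4.79 and 9.20 in homozygous replicates 1, 2 and 3, and 5.06, 4.86 and 4.84 in heterozygous replicates 1, 2 and 3. Like Act79B, it is highest in homozygous replicate 3.

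Within each array, the flight isoform was then set against the tubular isoform of its own family, which asks only whether that difference changed between genotypes. Act88F minus Act79B was 3.40, 0.87 and -3.28 in homozygous replicates 1, 2 and 3, and 5.88, -0.26 and 3.84 in heterozygous replicates 1, 2 and 3. The genotypes overlap, and the change of -2.82 gave p = 0.4 in a two-sided exact permutation test. Leaving out 1 array moved this change between -4.53 and -1.02. The smallest, -1.02, was without homozygous replicate 3, the array with high Act79B. TpnC4 minus TpnC41C was -3.61, -5.14 and -3.93 in homozygous replicates and 0.17, -4.25 and -0.65 in heterozygous replicates. Heterozygous replicate 2 fell inside the homozygous range, and the change of -2.65 gave p = 0.3 by the same exact test. This difference was lower in homozygotes in all 3 same-numbered pairs (-3.78, -0.89 and -3.27). The permutation test does not use these pairs, which the labels do not define. Adjusted over the 2 differences both were p = 0.4 (exact permutation test), and 3 arrays against 3 cannot give less than 0.1.

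Of the other sarcomere genes none was called, and most varied less between arrays than the flight isoforms. Of 14 thin filament and Z disc genes 12 had a probe set, and of 10 thick filament and titin-like genes 9, with 11 and 9 above the limit. By limma 0 of these passed in either direction, and 0 had an unadjusted p under 0.05. Their median differences were 0.01 and 0.07, and their median spans over the 6 arrays 0.95 and 0.73, with 5.05 for up, the troponin T gene, the widest. Without homozygous replicate 1, where it read 6.83, up spanned 2.70, and its difference turned from -0.73 to 0.84 (limma adjusted p = 0.530). Mf (myofilin), a thick filament gene, read 14.34, 14.32 and 14.16 in homozygous replicates 1, 2 and 3, and 14.29, 14.33 and 14.27 in heterozygous replicates 1, 2 and 3, a span of 0.18. bt (bent), which encodes the titin-like protein projectin, spanned 0.51, and Mlc1, a myosin light chain gene, 0.85. These 4 genes were picked after their values were seen. The smallest unadjusted p values in the 2 lists were those of Tm2, a tropomyosin (difference 0.38), Zasp67 (under the limit), Prm, the thick filament core protein paramyosin (0.32), and Mlc2, the regulatory myosin light chain (-0.96, and -0.44 without homozygous replicate 1), each with an adjusted p of 0.611 (limma).

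The other muscle lists gave the same count of calls. Calcium handling gave 0 calls among 8 genes, each of them above the limit. Stim, an endoplasmic reticulum calcium sensor, had a difference of 0.31 without overlap (limma adjusted p = 0.611), and RyR, the calcium release channel, differed by 0.54 (adjusted p = 0.611). SERCA, the calcium pump and also picked after its values were seen, spanned 0.36 over the 6 arrays. Of 10 attachment and integrin genes 0 were called, with stck (difference 0.47, adjusted p = 0.288) and Ilk (0.44, adjusted p = 0.611), which act in integrin adhesion, having the smallest unadjusted p values. Of 7 muscle energy genes 0 were called, and Gpdh1 (0.59) and Pfk (0.23), of glycerol phosphate and glucose metabolism, were the nearest (adjusted p = 0.611 for both). Counts above the limit in these lists go by the mean over the 6 arrays. Of 6 muscle regulators 4 were above it by that mean, 2 of them (salm and vg) not on every array, and the 2 with the smallest unadjusted p, twi and nau, were not. Of 5 ATP synthase and carrier genes 0 were called, with ATPsynO at -0.25 and blw at -0.03, and the 1 paralogue measured, Mlc-c, a nonmuscle myosin light chain, was at 0.19. Over the 8 lists 58 of 73 genes had a probe set. By limma 0 were called. At an unadjusted p under 0.05 (limma), 0 were lower and 2 higher, against 463 and 580 of all 11982 genes. The groups did not overlap in 5, all higher, against 1953 higher and 698 lower of all 11982 genes. Counted over probe sets instead of genes, the shares were 18.5% higher and 4.48% lower. Among the 5, Zasp67 and twi were under the limit on all arrays.

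Homozygous replicate 1 differed from the others in the controls for RNA length. Probe sets at the 3′ end of the control transcript eIF-4a exceeded those at the 5′ end by 10.18 log2 units there and by 5.90 to 6.95 on the 5 other arrays, and for GAPDH the gap was 10.81 against 4.42 to 5.69. The 5′ sets of homozygous replicate 1 lay under the limit (2.80 and 2.22), so these gaps are not exact. Against the middle of the transcript, above the limit on every array, the gap was 4.96 against 1.97 to 2.36 for eIF-4a and 3.91 against 1.04 to 1.66 for GAPDH. Without that array the differences were -2.54 for Act88F, -3.48 for TpnC4, -1.83 for fln, 1.81 for Act79B, -0.52 for TpnC41C, -0.42 for Act87E and 0.47 for TpnC73F, with 0 calls among the 7 (limma). Poxn read 2.30 to 2.65 over the 6 arrays, under the limit, and so gave no check of the genotype labels. Of markers fixed for the other cell types of the organ, 3 of 5 neuronal, all 3 glial, 2 of 5 fat body (1 of them, Yp1, on 2 arrays), all 5 blood cell and 0 of 3 cuticle genes had means above the limit. The summed neuronal level was lower in homozygotes (10.24 to 10.47 against 11.28 to 11.60) and the summed blood cell level higher (12.98 to 13.10 against 12.63 to 12.87), both without overlap, with 0 genes of either list called by limma. The neuronal sum rests mostly on its brightest gene, Appl (9.74 to 10.35 in homozygotes, 10.99 to 11.36 in heterozygotes). The gene elav was lower without overlap as well, and lowest in homozygous replicate 1 (6.28). nSyb overlapped, and brp and para were under the limit on all arrays. The part of the neuronal and blood cell levels in the muscle readings was not tested. All 3 photoreceptor genes were above the limit as well, with a summed level of 12.03 to 14.85 in homozygotes and 12.67 to 14.72 in heterozygotes. That level was lowest in homozygous replicate 3, the array with high Act79B, and next lowest in heterozygous replicate 1, the array with the highest Act88F and TpnC4. Its part in either result was not tested.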

How the data were processed

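Total RNA of 6 proboscis samples was extracted with Trizol, and about 50 ng was amplified in 2 rounds into biotinylated cRNA, per the labels' protocols. Values are as deposited: log2 signals that the authors computed with GCRMA, per the submitters' processing notes (version not given in the sources used here). This method corrects background by probe sequence, normalizes the arrays to each other and summarizes each probe set. The log2 scale was read from the values (1.57 to 16.02). Small differences under the background limit of 3 carry little meaning. No genome build is given in the sources used here.

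Of 18952 probe sets, 183 controls were left out. Of the other 18769, 13647 had 1 gene, 402 several and 4720 none in the platform annotation, and 13544 of the first were matched to RefSeq symbols (Release 6) by Entrez identifier. The genotype difference came from limma 3.58.1 under R 4.3.3 (lmFit, eBayes with an intensity trend), checked on simulated data. Within-array differences used exact permutation tests (scipy 1.17.1). The labels do not say whether a replicate number marks a shared batch. Deviations of same-numbered arrays correlated at 0.372, 0.288 and 0.142, all above 0.1. On this evidence, which is not from the labels, arrays were treated as paired by number in an alternative fit with the replicate block. Homozygous replicate 3 correlated higher with heterozygous replicate 2 (0.275). Homozygous replicate 2 with heterozygous replicate 3 (0.129) was above 0.1 as well, so this cut does not separate same-numbered arrays from others. The remaining different-numbered correlations were negative (-0.349 to -0.169).

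The genes followed, the 8 lists and the background limit were chosen with earlier results of these data known. Named were all members, the 2 genes per list with the smallest unadjusted p, and the 4 genes closest to the member with the largest SD over the arrays; others are said to be picked after their values were seen. Each gene in a list was read by the brightest of its 1-gene probe sets. A summed marker level is the log2 of the sum of the unlogged values. Alternatives were the block, fixed or random, leaving out the dimmer 50% of probe sets, other variance settings, other normalizations, other probe set rules, and leaving out arrays.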

Additional observations from a re-analysis of the deposited data

How the results depend on the processing

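The 7 muscle isoform genes had 0 lower and 0 higher calls under every alternative run. None of 113 alternative tests of their differences passed the threshold (smallest adjusted p 0.225, for TpnC4 with the replicate block and only the brighter 50% of probe sets). In 48 of them only the error could change. Of the 65 that could move the difference, 63 kept its direction. The 2 that turned were TpnC41C without homozygous replicate 3 (0.33) and without heterozygous replicate 1 (0.02), and the cause was not tested. Leaving out 1 array moved the differences between 0.13 and 2.22 for Act79B, -3.14 and -0.20 for Act88F, -4.09 and -1.76 for TpnC4, -0.52 and 0.33 for TpnC41C, -0.66 and -0.20 for Act87E, 0.06 and 0.85 for TpnC73F, and -1.83 and -0.04 for fln. The within-array difference of Act88F and Act79B moved between -4.53 and -1.02, and that of TpnC4 and TpnC41C between -3.98 and -1.78.

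Counts over all probe sets, 59 lower and 11 higher, did move. The replicate block gave 0 and 0, the random replicate block 117 and 50, leaving out the dimmer 50% 123 and 33, and doing so with the replicate block 74 and 18. Without the intensity trend 35 were lower, and with arrays centred on their median 117 were lower and 35 higher. Leaving out 1 array gave 6 to 54 lower and 0 to 12 higher, and leaving out both arrays numbered 1 gave 9 and 0. The cause was not tested. Replicate numbers pair the arrays only by the data, and the block leaves fewer degrees of freedom. With 3 arrays a genotype and no detection calls used here, the wide intervals of Act88F, TpnC4, fln and Act79B leave changes of several-fold undetectable.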
